A study of Rattus norvegicus with 12 samples.

Results

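Rat inner medullary collecting duct (IMCD) cells in primary culture were compared at a pair of osmolalities and a pair of times, and the question taken up here is whether the response to low osmolality at 48 h differed from that at 24 h. The quantity is the interaction of osmolality with time, which is the log2 difference of 300 minus 640 mOsm/kg at 48 h, less the same difference at 24 h. All 12 arrays of the series entered it, chosen by their titles, with 3 arrays in each of 4 groups. A negative interaction means that the level at 300, set against 640, was lower after 48 h than after 24 h. The same number equals the change from 24 h to 48 h at 300 less the change over that time at 640, so each interaction can be split into a 300 arm and a 640 arm.

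Collecting duct cells were taken from the kidneys of male rats of strain SD (Sprague-Dawley), aged 7 weeks. All cultures first spent 4 days at 640 mOsm/kg. The control groups then stayed at 640 for a further 24 h or 48 h, which makes 5 or 6 days in culture, and the treated groups were moved to 300 mOsm/kg for 24 h or 48 h. Short codes in the sample descriptions disagree on the osmolality of the treated group of 24 h and the control group of 48 h, and the titles, treatment labels and design text were followed. No group was sampled at the moment of the step, and no label ties the 3 samples of a group to separate rats or dishes, so a p-value weighs a difference against the spread of these samples alone, and that spread may be technical.

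The inner medulla is the most concentrated region of the kidney, and its collecting duct cells keep their volume by holding organic osmolytes, whose transporters and enzymes are driven by the transcription factor Nfat5. Interferon-stimulated genes are a separate programme that most cell types carry: type I interferon acts through its receptor on transcription factors such as Irf9, the promoters of its targets hold an element with repeated GAAA cores, and the products block viral entry, RNA translation and viral budding. Their transcription starts within hours of a stimulus and is dampened by negative regulators such as Usp18.

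RNA was measured as log2 intensities of gene-level probe sets, and each array was centred on its own median, so a level is given below as log2 units above or below the median of the 14506 genes tested. Before centring, the medians of the 48 h arrays ran from 6.81 to 6.97 and those of 4 of the 24 h arrays from 7.43 to 7.58, while replicate 3 at 640 and replicate 1 at 300 of that time stood at 6.90 and 6.89. Of 11 principal cell markers measured, 9 were above the array median at 640 and 24 h, and their mean over the list was above that median on every array. Scnn1g, a sodium channel subunit, and Hsd11b2, which protects the mineralocorticoid receptor from glucocorticoids, were the pair below it. Markers of macrophages and fibroblasts were present at lower list means and are given with the time changes below. In bulk RNA, fewer cells of a type and less RNA per cell cannot be told apart.

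Few responses passed the test for a difference between the times, and those that did were interferon-linked. Of 14506 genes, 4 passed the interaction test (0.0276%; limma, Benjamini-Hochberg adjusted p under 0.05), and in all 4 the level at 300 relative to 640 was lower at 48 h than at 24 h. They were Mx1, a dynamin-like GTPase that blocks viral replication, Ifit3, which binds foreign RNA as part of the Ifit complex, Oas1a, which makes the messenger that activates the ribonuclease RNase L, and Cxcl10, a chemokine that draws T cells and is induced by interferon. In the other direction 0 genes passed, and 49 had an unadjusted p under 0.05, against 82 in the negative direction. Both directions together held 0.903% of all genes. With no interaction in any gene, a share near 0.05 would be under that p. The interaction p-values thus ran large here, and few calls need not mean few differences. In simulated data the test recovered 4% of interactions of 1 log2 unit, so a gene that did not pass may still have differed. The median interaction of all genes was 0.04 and its median standard error was 0.285.

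The promoters of the called genes are shown because interferon-responsive genes are known by a short element. In RefSeq sequence of build GRCr8, the 250 bases before the start of each gene were searched on both strands for 2 GAAA cores set apart by any 2 bases. The 3 stretches below run 5′ to 3′ along the gene's strand, with the matches in capitals; the match in Ifit3 lies on the other strand, and Oas1a has 2 overlapping matches.
Cxcl10, chr14:15988816-15988862, plus strand: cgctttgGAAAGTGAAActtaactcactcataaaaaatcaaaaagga
Ifit3, chr1:241527252-241527321, plus strand: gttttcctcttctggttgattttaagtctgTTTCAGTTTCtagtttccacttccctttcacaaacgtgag
Oas1a, chr12:41330395-41330465, plus strand: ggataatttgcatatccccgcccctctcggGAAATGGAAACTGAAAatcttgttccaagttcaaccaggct

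Mx1 held no match in that window, although its interaction was the largest. The element was found in 3.24% of the 11968 tested genes that had a promoter, and in 70.4% (19 of 27) of the interferon-stimulated list defined below. Within the list it was present in 6 of 8 promoters of members with an unadjusted interaction p under 0.05 and in 13 of 19 promoters of the other members, or 75.0% and 68.4%. The core TGGAAA, which the Nfat5 element holds, was found in 17.4% of tested promoters and in 3 of the 4 called genes. It was also in 55.6% (15 of 27) of the interferon-stimulated list and in 12.5% (1 of 8) of the organic osmolyte list. In Oas1a and Cxcl10 its match overlaps that of the first motif. These matches describe letters in the window and are no evidence of binding.

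Mx1 had the largest interaction of all genes tested. At 640 its level was 2.29, 0.88 and 1.55 in replicates 1, 2 and 3 at 24 h and 3.23, 2.92 and 3.06 at 48 h. At 300 it was 0.60, 0.69 and 1.20 at 24 h and -1.23, -0.91 and -0.74 at 48 h. At 24 h the groups overlapped, and at 48 h every array at 300 lay far below every array at 640. The difference of 300 minus 640 was -0.74 at 24 h (adjusted p = 0.592) and -4.03 at 48 h, a 16.3-fold lower level (limma adjusted p = 1.8e-06). Their interaction was -3.29 ± 0.40 (SE; 95% interval -4.14 to -2.43; limma adjusted p = 0.00995). It was carried by both arms in opposite directions: at 300 the level fell by 1.79 (adjusted p = 0.0190), while the change at 640 was 1.495 (adjusted p = 0.0633).

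Ifit3 reversed its order. At 640 it stood at -0.09, -0.97 and -0.75 at 24 h and at 0.11, 0.43 and 0.43 at 48 h, and at 300 at 0.12, 0.28 and 0.20 at 24 h and at -1.55, -1.21 and -1.01 at 48 h. Every array at 300 lay above every array at 640 at 24 h, and every one lay below at 48 h. The difference was 0.81 at 24 h (adjusted p = 0.160) and -1.58 at 48 h (adjusted p = 0.000769), and the interaction was -2.38 ± 0.31 (SE; limma adjusted p = 0.0101). Only the difference at 48 h passed its own test, so the reversal is one of estimates. The level fell by 1.46 at 300 between the times (adjusted p = 0.0110), and the change at 640 was 0.93 (adjusted p = 0.218).

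Oas1a also changed sign in its estimates, at a smaller size. Its levels at 640 were -0.88, -1.12 and -1.37 at 24 h and -0.48, -0.29 and -0.41 at 48 h, and those at 300 were -0.95, -0.59 and -0.59 and then -1.81, -1.41 and -1.70. The groups overlapped at 24 h and were apart at 48 h, with 300 lower. The difference went from 0.42 (adjusted p = 0.781) to -1.24 (adjusted p = 0.00101), with an interaction of -1.66 ± 0.25 (SE; limma adjusted p = 0.0354). At 300 the level fell by 0.93 (adjusted p = 0.0469).

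Cxcl10 was almost equal between osmolalities at 24 h. It stood at -0.55, -0.22 and -0.83 at 640 and at -0.76, -0.24 and -0.81 at 300, and the groups overlapped throughout. At 48 h it stood at 1.02, 1.67 and 0.60 at 640 and at -1.94, -1.22 and -1.54 at 300, with no overlap. The difference of -0.07 at 24 h (adjusted p = 1.000) became -2.66 at 48 h (adjusted p = 4.7e-05), with an interaction of -2.59 ± 0.38 (SE; limma adjusted p = 0.0333). Of the called genes it alone rose at 640 by that arm's own test, by 1.63 (adjusted p = 0.0362), a call that was lost on the values without centring, and its change at 300 was -0.96 (adjusted p = 0.228).

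**Figure D1:**
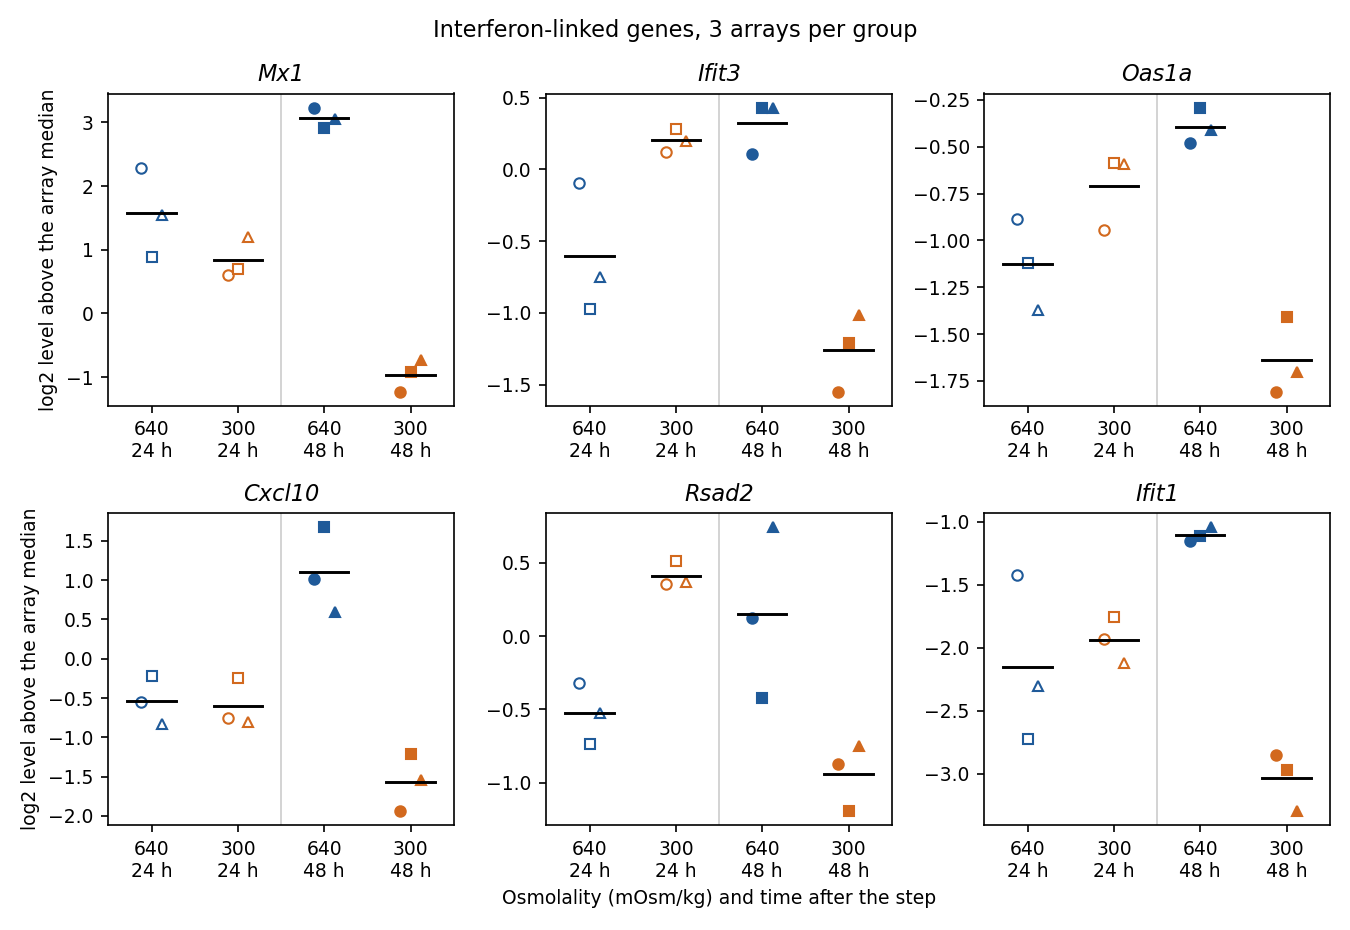
Each panel plots 1 gene, with the log2 level above the array median on the y axis and the 4 groups of osmolality and time on the x axis. Points are single arrays (circle, square and triangle for replicates 1, 2 and 3; open at 24 h, filled at 48 h) and bars are group means. At 48 h the 300 arrays (orange) lie below the 640 arrays (blue) in all 6 genes, while at 24 h Ifit3 and Rsad2 at 300 lie above 640.

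Rsad2 and Ifit1 came next and did not pass (limma adjusted p = 0.0723 for each). Rsad2, also called viperin, makes a chain-terminating nucleotide. It stood at -0.32, -0.74 and -0.52 at 640 and at 0.36, 0.51 and 0.36 at 300 after 24 h, and at 0.12, -0.42 and 0.74 against -0.87, -1.19 and -0.75 after 48 h. As in Ifit3, the 300 arrays lay wholly above those at 640 at 24 h and wholly below them at 48 h, with differences of 0.94 (adjusted p = 0.127) and -1.09 (adjusted p = 0.0293). The interaction was -2.02 ± 0.34 (SE), and the 300 arm fell by 1.35 between the times (adjusted p = 0.0333), against a change of 0.67 at 640. Ifit1, which binds RNA that lacks a cap methyl group, had an interaction of -2.15 ± 0.36 (SE). Its difference was 0.21 at 24 h, where groups overlapped, and -1.94 at 48 h (adjusted p = 0.000532), where they did not.

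The 4 calls rest on the scaling and on single arrays, although the direction of the interaction was negative in all 4 genes under every alternative run. On the deposited values without centring 0 genes passed (64 with an unadjusted p under 0.05; Mx1 adjusted p = 0.0825), and 0 passed without replicate 3 of the 300 group at 24 h (110 unadjusted) or without the pair of 24 h arrays of low median (150 unadjusted). Only 2 passed after cyclic loess or quantile normalization, or without replicate 3 at 640 and 24 h, replicate 2 at 300 and 24 h, replicate 1 at 640 and 48 h, or replicates 1 or 3 at 300 and 48 h. Of 22 alternatives, Mx1 and Ifit3 passed in 19 each, Cxcl10 in 10 and Oas1a in 7.

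The wider interferon-stimulated list held 38 measured genes, of which 3 passed the interaction test, all lower, and 35 did not. The median interaction was -0.31, against 0.04 over all genes. It was negative in 30 of 38 members, against 39.9% of all genes, and 13 members had an unadjusted p under 0.05, all of them negative, against 0.565% of all genes in that direction. Among the 10 genes of smallest interaction p, 7 belonged to the list, among the first 50 there were 11, and among the first 100 there were 13.

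The list mean changed sides between the times. On the 3 arrays at 24 h it lay between -0.355 and 0.0317 at 640 and between 0.0864 and 0.198 at 300. At 48 h it lay between 0.112 and 0.198 at 640 and between -0.236 and -0.148 at 300. The groups did not overlap at either time, with 300 above 640 at 24 h and below it at 48 h. By gene, 28 of 38 estimates were higher at 300 at 24 h and 12 of 38 at 48 h, and 18 were higher at 24 h and lower at 48 h, a pattern that 10.1% of all genes had. Few of these differences passed alone. At 24 h 1 member was called, higher (0.655% of all genes were called at that time), and at 48 h 8 members were called lower and 1 higher (1.33% and 0.524% of all genes in those directions, 1.85% in all).

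Among the effectors, the remaining members with an unadjusted p under 0.05 had interactions between -1.44 and -0.61. Oas1b, Oasl and Oas1i, relatives of Oas1a, were at -1.44, -1.18 and -0.61, Mx2 was at -1.18, Ifit2 at -0.82 and Isg15, a ubiquitin-like modifier, at -0.74. Mx2, Ifit2 and Isg15 differed from Mx1 in where both times stood: their differences were 0.94, 0.79 and 0.72 at 24 h and -0.24, -0.03 and -0.02 at 48 h, so their estimates were near 0 at the later time. Oasl went from 0.16 to -1.03 and Oas1b from 0.50 to -0.94. Probe sets of the Oas, Mx and Ifit families may share sequence with near relatives, which was not checked.

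Of the regulators, Irf7, the factor that amplifies interferon production, had an interaction of -1.46 (limma adjusted p = 0.196), from 0.57 at 24 h to -0.88 at 48 h, the latter past its test (adjusted p = 0.0304). Usp18, the protease that removes Isg15 and dampens receptor signalling, was the list member called at 24 h: it was higher at 300 by 0.95, and at 48 h its difference was -0.28. Its interaction of -1.23 did not pass (adjusted p = 0.708), and the larger time change was at 640, at 0.84 against -0.40. The transcription factors Stat2 and Irf9 were at -0.29 each, and the RNA sensor Ifih1, the ubiquitin ligase Trim25 and the tetherin Bst2 were at 0.02, 0.00 and -0.02. Gbp2, a guanylate-binding protein, was higher at 300 by 0.63 at 24 h and by 0.95 at 48 h in the estimates, and it was the member called higher at 48 h (adjusted p = 0.0343).

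A separate list of 20 genes of interferon sensing and signalling, with receptors, Janus kinases, Toll-like receptors and interferon regulatory factors, had a median interaction of 0.00 and 0 members with an unadjusted p under 0.05. The 20 genes of antigen presentation and the immunoproteasome, many of which respond to interferon gamma, had a median of -0.10 and likewise 0 members under that p. Over all genes 0.903% were under it, so 0 of 20 is near the general share in both lists. In 28 chemokine and cytokine genes the median was 0.10, and Cxcl10 was the member that passed.

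On centred arrays, the arms of the interferon list leaned in opposite directions. Between 24 h and 48 h the median change was -0.19 at 300 and 0.18 at 640, and the estimate was negative at 300 and positive at 640 in 21 of 38 members, against 9.14% of all genes. At 300, 4 members fell, namely Mx1, Ifit3, Oas1a and Rsad2 (0.0896% of all genes fell), while at 640 no member of the list passed (0.138% of all genes did, all of them higher; 0.255% passed at 300 in either direction). The size rule, by which 1 arm carries an interaction if its change is at least 2 times that of the other, gave both arms for each of the 4 called genes. With a ratio of 1.5, Ifit3 was assigned to 300 and Cxcl10 to 640. On the deposited values all changes over time were lower, with medians of all genes of -0.38 at 300 and -0.41 at 640. That shift is larger than the list's median change of 0.18 at 640, so the list's median rise at 640 rests on the centring. The arms of the 4 called genes kept opposite signs on the deposited values. There the size rule gave 3 of the 4 to 300, with changes at 300 and 640 of -2.22 and 1.08 in Mx1, -1.89 and 0.51 in Ifit3 and -1.36 and 0.32 in Oas1a, and left Cxcl10 with both. On those values limma called 0 genes over time at 300 and 0 at 640 (3369 and 4077 with an unadjusted p under 0.05). Each fall at 300 named here and the rise of Cxcl10 at 640 thus lost its call, as did every change over time called in the paragraphs below.

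**Figure D2:**
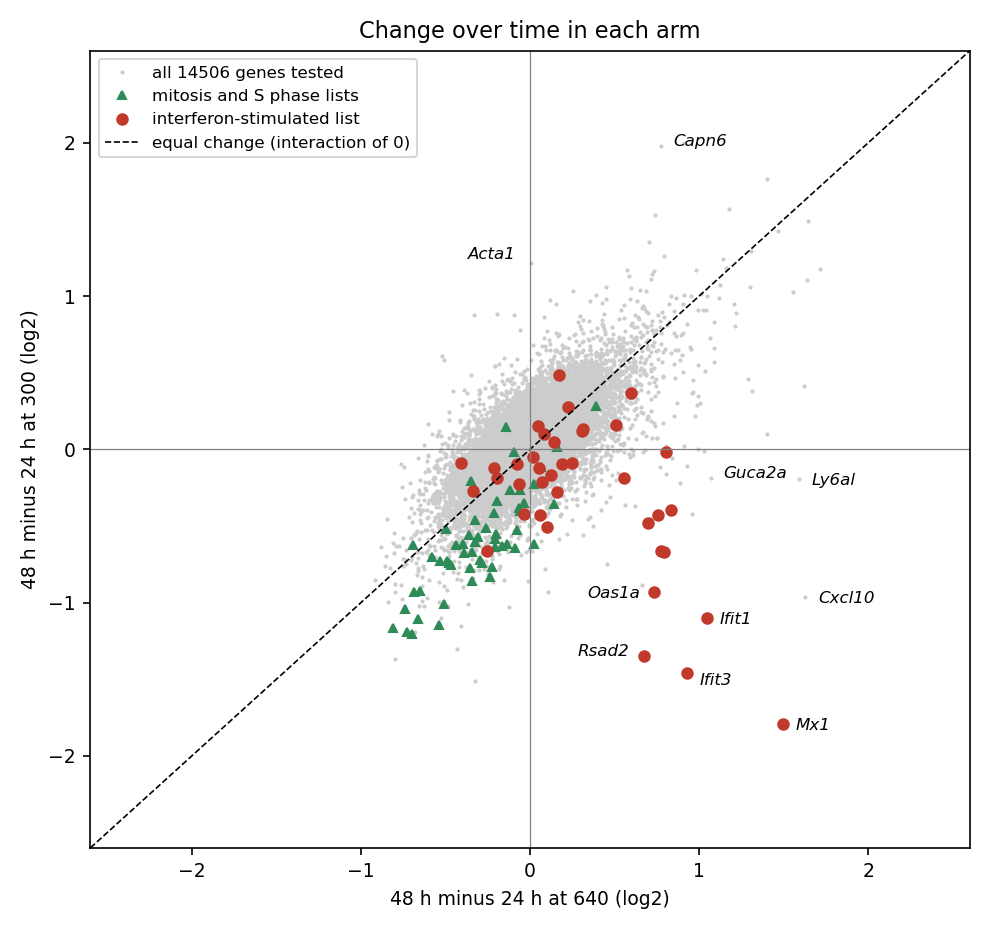
The x axis gives the log2 change from 24 h to 48 h at 640 mOsm/kg and the y axis the same change at 300, with grey points for all 14506 genes, red for the interferon-stimulated list and green for the mitosis and S phase lists. Points on the dashed line have an interaction of 0. Mx1 (1.495, -1.79), Cxcl10, Ifit3 and Ifit1 lie in the lower right, where levels were higher with time at 640 and lower at 300, and most cell-division genes lie at lower left, below the line.

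Genes that had opposite signs at the 2 times were looked for among all genes called at either. Of 290 genes called at 24 h or 48 h, 8 had estimates of opposite sign, and all 8 were members of the interferon list: Ifit3, Oas1a, Rsad2, Ifit1, Irf7, Oas1b, Oasl and Usp18. No gene passed the test in opposite directions at both times. Genes called at neither time could also change sign. Ptgr1, outside the interferon list, had estimates of 0.58 at 24 h and -0.60 at 48 h. Its interaction of -1.19 did not pass (limma adjusted p = 0.802). Over all tested genes 33.8% of the estimates had opposite signs. Among the 74 genes called at both times, all 74 kept their sign and 62 had the larger estimate at 48 h.

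**Figure D3:**
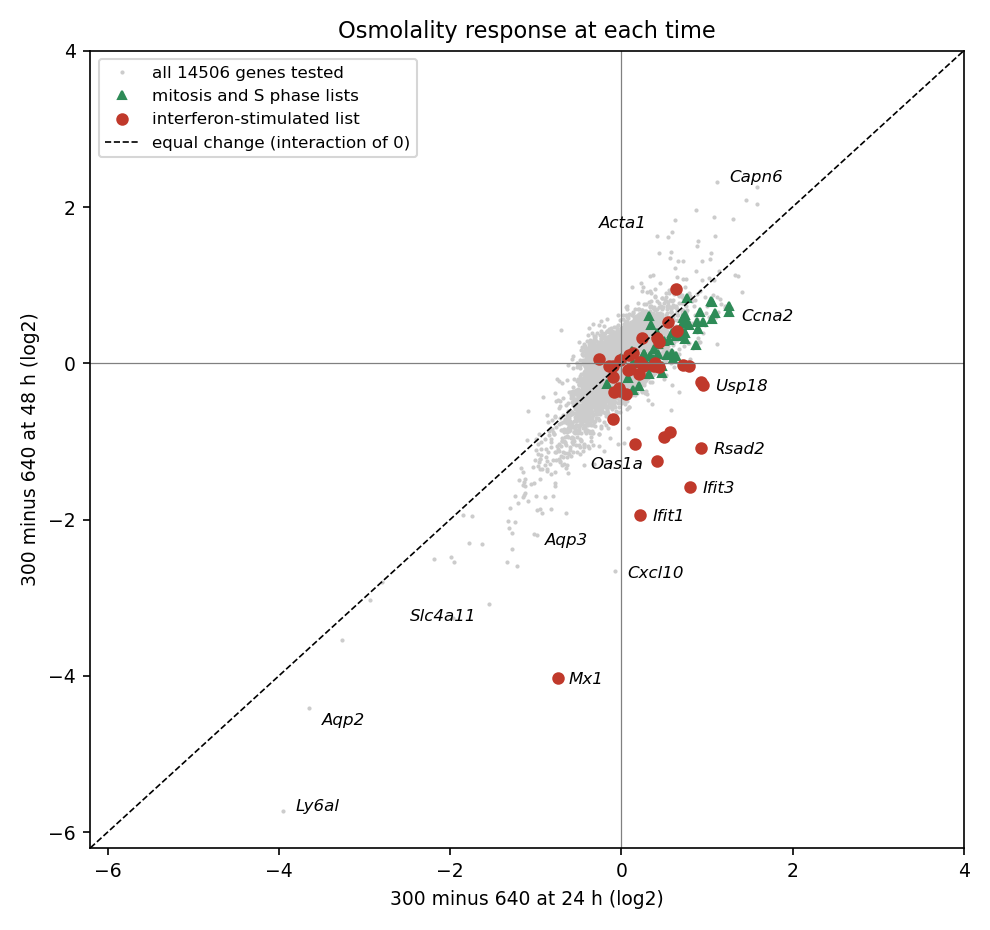
The x axis gives the log2 difference of 300 minus 640 at 24 h and the y axis the same difference at 48 h, with grey points for all 14506 genes, red for the interferon-stimulated list and green for the mitosis and S phase lists. The dashed line marks equal differences. Mx1 (-0.74, -4.03) and Cxcl10 (-0.07, -2.66) lie far below the line, Ifit3 and Rsad2 lie in the lower right, Ly6al and Aqp2 lie at lower left below the line, and most cell-division genes lie between the line and the x axis at right.

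Responses that were lower at 300 were mostly larger at 48 h, though none of them passed the interaction test outside the interferon-linked genes. Of 55 genes called lower at 24 h, all 55 kept their sign at 48 h and 51 had the larger estimate there, with a median size of 1.13 at 24 h and 1.65 at 48 h. In 44 of the 55 the change over time was larger at 640 than at 300. Genes chosen by their call at 1 time are not an unbiased sample for its size, and here the choice favoured the 24 h value. Of the 55, 0 passed the interaction test and 15 had an unadjusted p under 0.05, which 0.903% of all genes had.

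Slc4a11, a membrane transporter of the bicarbonate transporter family that moves protons and water, was the nearest of them to the threshold (limma adjusted p = 0.260). Its level at 640 was 2.95, 2.78 and 2.35 at 24 h and 3.26, 3.60 and 3.20 at 48 h, and at 300 it was 0.76, 1.52 and 1.17 and then 0.10, 0.51 and 0.20. The groups were apart at both times and further apart at 48 h. The difference was -1.54 at 24 h and -3.09 at 48 h, with an interaction of -1.54 ± 0.31 (SE), to which 300 gave -0.88 and 640 gave 0.66.

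Guca2a encodes guanylin, a peptide that activates membrane guanylate cyclases. It stood at -0.66, -0.51 and -0.05 at 640 and 24 h and at 0.69, 1.00 and 0.30 at 640 and 48 h, while at 300 it stood at -1.09, -0.97 and -1.12 and then at -1.18, -1.47 and -1.09. The 300 arrays hardly differed between the times and the 640 arrays were all higher at 48 h. The interaction of -1.26 ± 0.29 (SE) did not pass (adjusted p = 0.708), with -0.19 from 300 and 1.07 from 640. Rhbg, an ammonia channel of intercalated cells and collecting duct, had the same form, with 0.00 from 300 and 0.99 from 640 and an interaction of -0.99. Ly6al, of the Ly6 family of lipid-anchored surface proteins, had the largest difference of the named genes, -3.95 at 24 h and -5.73 at 48 h, and an interaction of -1.78 ± 0.58 (SE), with -0.19 from 300 and 1.59 from 640. The mucin Muc1, the nucleotide and prostanoid exporter Abcc4 and the binding protein Igfbp5 had interactions of -0.69, -0.71 and -0.80, and none of these passed.

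The water and urea transport genes Aqp2, Aqp3, Slc14a2 and the receptor Avpr2 had negative interactions that did not pass. Aqp3, the basolateral water and glycerol channel, stood at 2.04, 1.96 and 2.21 at 640 and at 0.98, 1.53 and 0.65 at 300 after 24 h, and at 3.28, 2.42 and 2.65 against 0.45, 0.36 and 0.98 after 48 h. The groups did not overlap at either time. Its interaction was -1.17 (95% interval -1.95 to -0.40), and that of the urea transporter Slc14a2 was -1.20 (-2.15 to -0.25). For the vasopressin-regulated channel Aqp2, whose difference was -3.65 at 24 h and -4.41 at 48 h, the interaction was -0.76 with an interval of -1.76 to 0.24, and for the vasopressin receptor Avpr2 it was -0.31 (-0.999 to 0.38). With array weights both turned positive, to 0.02 and 0.13. In the list of 24 principal cell and vasopressin response genes the median was -0.18, with 15 negative members (39.9% of all genes were negative) and 0 called. In the 11 principal cell markers used above to check the cell type, some of them structural genes such as Krt8, Krt18 and Cdh1, the median was 0.06, with 6 positive members.

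No osmolyte gene passed the interaction test, and the intervals of those named all include 0. Aldose reductase, Akr1b1, which makes sorbitol, was at -0.16 (95% interval -0.92 to 0.60) and turned to 0.05 after quantile normalization. The inositol transporter Slc5a3 was at -0.59 (-1.88 to 0.70), the taurine transporter Slc6a6 at -0.35 (-1.03 to 0.32) and the chaperone Hspa4l at -0.51 (-1.09 to 0.07). Nfat5 itself was at 0.01 (-0.60 to 0.61), and its sign turned on the deposited values and after cyclic loess. The median over the 14 osmolyte genes was -0.10. The intervals of Slc5a3, Slc6a6 and Hspa4l reach beyond 1 log2 unit on the negative side, as do those of Aqp2, Aqp3 and Slc14a2.

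The positive interactions named here, Acta1, Bmp6, Capn6, Dcx, Stmn4 and Adamts1, belonged to genes with higher levels at 300 and larger differences at 48 h. Acta1, skeletal muscle alpha-actin, came nearest to the threshold of all positive interactions (limma adjusted p = 0.0963). It stood at 0.29, 0.07 and 0.19 at 640 and at 0.62, 0.47 and 0.73 at 300 after 24 h, and at 0.22, 0.10 and 0.25 against 1.86, 1.91 and 1.69 after 48 h. The 640 arrays were level between the times, and at 300 each array at 48 h was above each at 24 h. Its interaction of 1.21 ± 0.21 (SE) came from the 300 arm, which rose by 1.21 (adjusted p = 0.00319), with 0.00 at 640.

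Capn6, a calpain without protease activity that binds microtubules, was higher at 300 by 1.11 at 24 h (adjusted p = 0.0286) and by 2.32 at 48 h (adjusted p = 2.6e-05). Its level at 300 was -0.68, -1.07 and -0.52 at 24 h and 1.36, 0.93 and 1.38 at 48 h, and at 640 it was -1.90, -1.98 and -1.73 and then -0.97, -1.54 and -0.78. Levels were higher at 48 h in both media, by 1.98 at 300 (adjusted p = 0.00123) and by 0.77 at 640, which did not pass. The interaction was 1.20 ± 0.30 (SE) and did not pass. Bmp6, a growth factor of the TGF-beta family, went from -0.55, -0.56 and -0.55 at 300 and 24 h to 0.54, 0.04 and 0.40 at 48 h, and at 640 from -1.13, -1.09 and -1.06 to -0.97, -1.51 and -1.38, with an interaction of 1.07. Adamts1, a secreted metalloprotease, and the microtubule genes Dcx and Stmn4 had interactions of 1.21, 0.97 and 0.85.

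**Figure D4:**
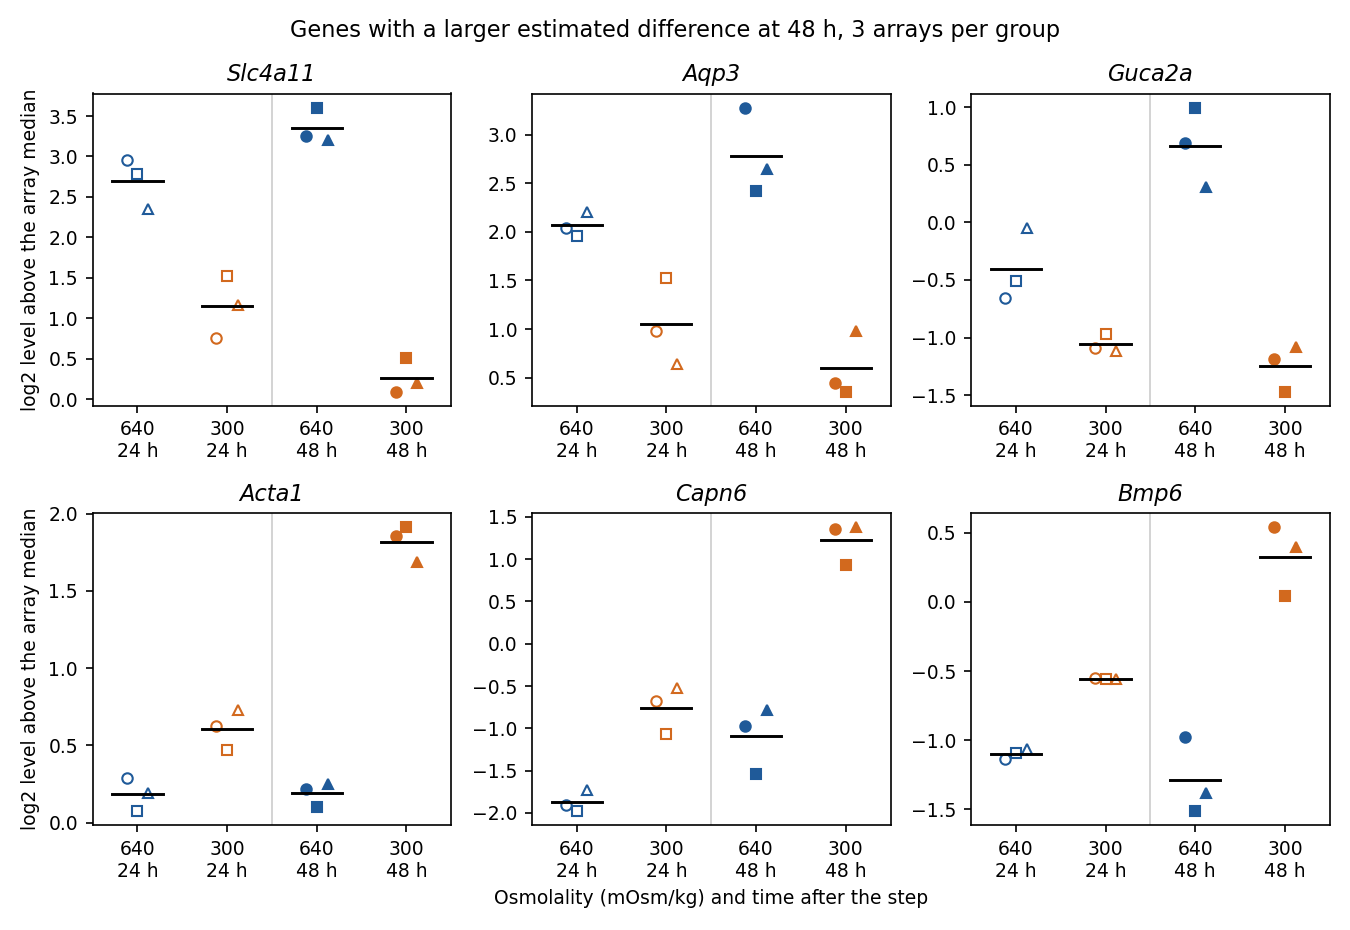
Each panel plots 1 gene, with the log2 level above the array median on the y axis and the 4 groups of osmolality and time on the x axis. Points are single arrays (circle, square and triangle for replicates 1, 2 and 3; open at 24 h, filled at 48 h) and bars are group means. In Guca2a the 640 arrays differ between the times and the 300 arrays hardly do, while in Acta1 the 300 arrays differ between the times and the 640 arrays hardly do. None of these 6 interactions passed the test.

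The list of 21 actin genes and targets of the factors SRF and YAP had a median interaction of 0.26, with 18 positive members and 0 called. Over all genes 39.9% of interactions were negative. Over time at 300, 4 of them rose (0.165% of all genes rose), and at 640 none passed. Those 4 were Acta1, the smooth muscle genes Cnn1 and Actg2, and the tropomyosin Tpm2, with changes at 300 of 1.21, 1.53, 1.35 and 1.16 and at 640 of 0.00, 0.74, 0.70 and 0.73. Fibroblast markers moved over the same time by medians of 1.07 at 300 and 1.13 at 640, and their part in these changes was not tested. Of 14 keratins 11 were positive, beside 8715 of all 14506 genes. Their median was 0.21, against 0.04 over all genes, and they ran from -0.62 to 0.78 in Krt17, with 0 called.

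Whether responses higher at 300 were larger or smaller at 48 h depended on how they were chosen. Of 40 genes called higher at 24 h, 29 had a smaller estimate at 48 h, with a median size of 1.04 at 24 h and 0.75 at 48 h, and in 31 the larger change over time was at 300. Of 76 genes called higher at 48 h, 64 had the larger estimate at 48 h, with a median size of 0.71 at 24 h and 0.95 at 48 h. Each choice favours its own time, so neither count shows a general fading or growth. The interaction test was passed by 0 of the 40 and 0 of the 76, and 7 of the 40 had an unadjusted p under 0.05 (0.903% of all genes did).

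Cell-division genes were among those with smaller estimates at 48 h. In the mitosis list all 27 interactions were negative, against 39.9% of all genes. They lay between -0.64 and -0.12, with a median of -0.30. The median difference was 0.74 at 24 h and 0.49 at 48 h, and the median change over time was -0.73 at 300 and -0.36 at 640. In the list of 28 S phase and DNA replication genes 23 were negative with a median of -0.26, and the median difference went from 0.37 to 0.08. None of the 55 genes passed the interaction test. At 24 h 7 members of the mitosis list were called higher (0.276% of all genes were), all with smaller estimates at 48 h, and at 48 h 1 of the 55 was called (0.524% of all genes were called higher), the thymidylate synthase Tyms, which was higher at 300 by 0.84.

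Ccna2, the cyclin A of S phase and mitosis, stood at -0.29, -0.12 and -0.40 at 640 and at 0.91, 1.11 and 0.94 at 300 after 24 h, and at -1.20, -0.69 and -0.54 against 0.01, -0.26 and -0.22 after 48 h. The groups did not overlap at either time, and levels were lower at 48 h in both media. Its difference was 1.25 at 24 h (adjusted p = 0.00484) and 0.65 at 48 h (adjusted p = 0.111), and the interaction was -0.60 (95% interval -1.16 to -0.05; adjusted p = 1.000). Top2a, the topoisomerase of dividing cells, went from 1.06 to 0.56 with an interaction of -0.50 (-1.02 to 0.02). At 300 Ccna2 fell by 1.14 (adjusted p = 0.0193) and Top2a by 1.01 (adjusted p = 0.0257), and their changes at 640 were -0.54 and -0.51.

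Other responses with smaller estimates at 48 h were scattered. Slc16a6, a monocarboxylate transporter, was called higher at both times, at 1.28 and then 0.70, with levels at 300 of -0.71, -0.69 and -0.62 and then -1.23, -1.36 and -1.18, and with an interaction of -0.57 that came from 300, at -0.58, with -0.01 at 640. Nqo1, a quinone reductase driven by Nrf2, was at 0.60 at 24 h and -0.28 at 48 h with an interaction of -0.87, and it fell by 1.30 over time at 300 (adjusted p = 0.0336). Neither interaction passed. Of 24 Nrf2 and glutathione genes, 19 were negative with a median of -0.21, and 39.9% of all genes were negative.

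**Figure D5:**
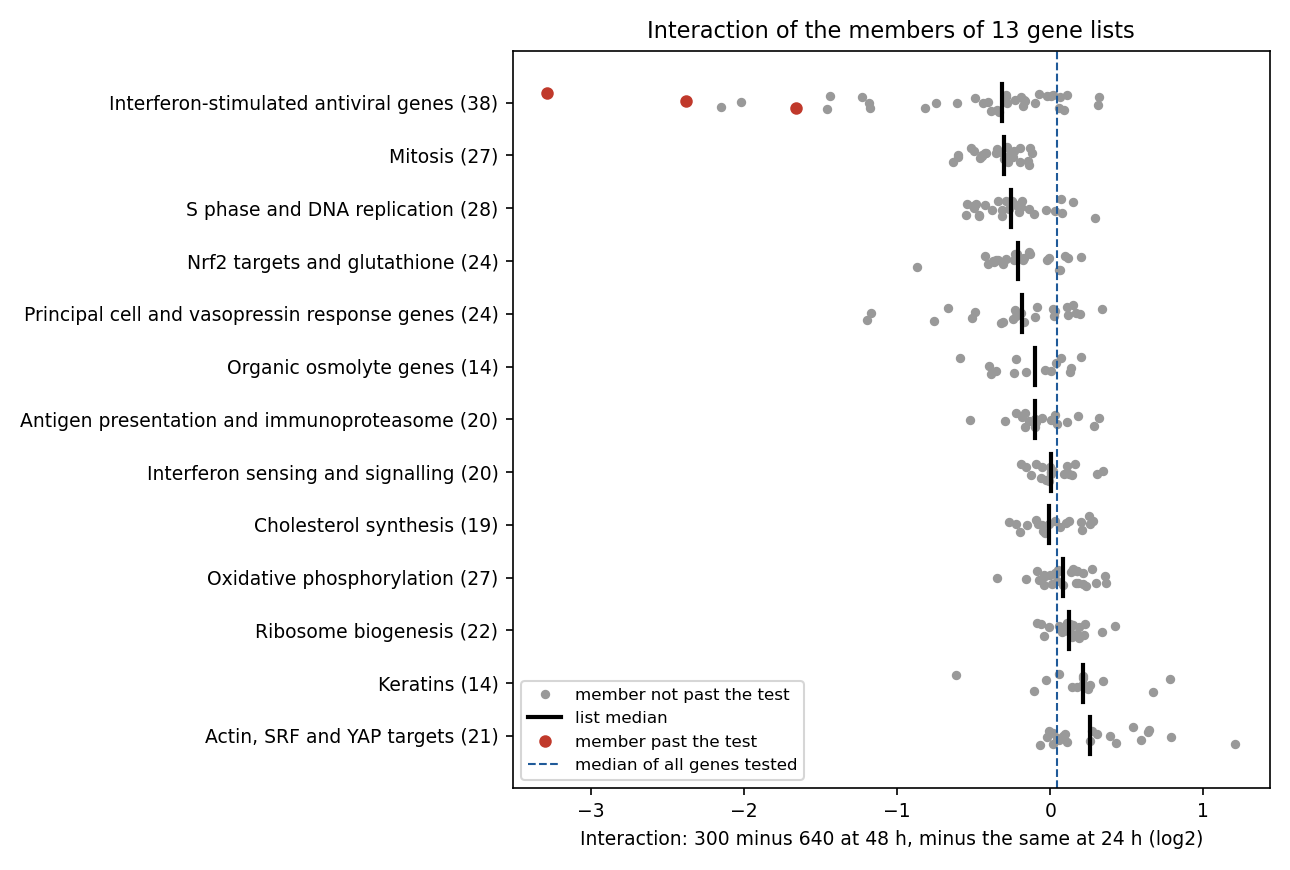
Each row is 1 of 13 gene lists with its number of measured members, and the x axis gives the interaction in log2 units. Points are genes, red if past the interaction test, black bars are list medians and the dashed line is the median of all genes, 0.04. The interferon-stimulated list has a long tail to -3.29, the mitosis list lies wholly below 0, and the actin list has its median at 0.26.

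Fibroblast markers were higher at 48 h in both media, and no marker of another cell type passed the interaction test. The 7 fibroblast markers had median changes of 1.07 at 300 and 1.13 at 640, with 3 called higher in each medium (0.165% of all genes at 300 and 0.138% at 640). These calls were lost on the values without centring. The median interaction of the 7 markers was -0.01. Their list mean lay between -0.499 and 0.143 at 640 and between -0.255 and 0.0788 at 300 after 24 h, and between 0.564 and 0.885 and between 0.552 and 1.12 after 48 h. The 10 macrophage markers, a cell type that can make Cxcl10, had median changes of 0.59 and 0.62 and a median interaction of -0.08. Their list mean lay between -0.898 and -0.757 at 640 and between -0.895 and -0.880 at 300 after 24 h, and between -0.410 and -0.211 and between -0.551 and -0.303 after 48 h. Of the 10, Csf1r was lower at 300 after 48 h and C1qa rose with time at 300 by 1.04 (adjusted p = 0.0319), and 0 passed the interaction test. Their part in the interferon-linked differences was not tested. Endothelial, intercalated and limb markers, with 6, 6 and 5 genes measured, had 0 called interactions.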

How the data were processed

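Affymetrix Rat Gene 1.0 ST arrays were hybridised with total RNA of 12 samples. The authors deposited log2 expression values per probe set, made by RMA with Affymetrix Power Tools per the submitters' processing notes, whose versions are not given in the sources used here. RMA corrects background, normalizes between arrays and sums probes, but the deposited medians still differ between arrays, so each array was centred on its own median. A difference in scale between arrays of a group enters its spread, and one between times enters each arm but cancels in the interaction if shared by both media. No detection calls were used, so the detection limit is unknown, and 3 arrays per group limit the precision. No hybridisation date or batch was used here.

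Of 27596 probe sets 15310 had 1 gene symbol in the platform's gene table, 323 had several and 11963 were not listed and stay unnamed. Entrez identifiers of 15279 matched the current RefSeq table, 31 did not, and 0 symbols needed updating. The probe set with the highest mean stood for each gene, which gave 14506 genes.

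Limma 3.58.1 in R 4.3.3 was fitted to all 12 arrays with a mean for each group, leaving 8 residual degrees of freedom, and adjusted by Benjamini-Hochberg over all genes at 0.05. The script was tested on simulated data with 200 changed genes. It recovered 8 of them at an interaction of 1 log2 unit, with 0 false calls. At 2 log2 units it recovered 181, with 10 false calls. The members and the 43 gene lists were chosen with earlier results of these data known, so no list is independent evidence. Genes were named if called, as next by p to 6 in a direction, from 13 preset genes, or as the member of smallest p in a list, and all others named were chosen after their values were seen. An effect counted from 0.5 log2 units. Promoter sequences came from RefSeq (GRCr8). Alternatives were other scalings, a filter on dim genes, other eBayes settings, array weights, other uses of probe sets, fewer arrays and the replicate number as a block.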

Additional observations from a re-analysis of the deposited data

Results flagged for a closer look

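In 4 genes the difference between osmolalities at 48 h differed from that at 24 h by the interaction term itself (limma, Benjamini-Hochberg adjusted over 14506 genes). The interaction was -3.29 in Mx1, -2.59 in Cxcl10, -2.38 in Ifit3 and -1.66 in Oas1a, and at 48 h all 3 arrays at 300 lay below all 3 at 640 in each of them. The genes were chosen by a test on these same arrays, so that separation is no added support. At 24 h the 300 arrays lay above the 640 arrays in Ifit3 and the groups overlapped in the other genes. The cause was not tested.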

How the results depend on the processing

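The 4 interactions became 0 on the deposited values, 2 after cyclic loess, 2 after quantile normalization, 2 with every probe set, 10 with array weights and 0 without the pair of 24 h arrays of low median, a choice made after seeing the data; leaving out single arrays gave 0 to 4. With array weights Acta1 was called higher, and replicate 1 at 640 and replicate 3 at 300 of 24 h had weights of 5.46 and 4.18, against 0.347 to 2.27 for the others. The 95 genes called at 24 h became 13 on the deposited values, 1595 with array weights, 17 without that pair and 10 when only the 6 arrays of that time were fitted, and 26 to 78 without single arrays, with the lowest count without replicate 3 at 300 and 24 h. The 269 genes at 48 h became 104 on the deposited values and 499 with array weights, and 158 to 296 without single arrays. The 37 genes that changed over time at 300 became 0 on the deposited values, 1907 with array weights, 22 with every probe set and 219 without the pair, and 7 to 50 without single arrays. The 20 at 640 became 0 on the deposited values, 986 with array weights and 34 without the pair, and 6 to 19 without single arrays. On the deposited values all time changes shifted by about the medians given above, and the standard errors of the called genes were larger. In the other cases the cause was not tested.

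With an effect counted from 0.5, Mx1 grew (same sign, larger at 48 h), Cxcl10 and Oas1a appeared (under that size at 24 h only) and Ifit3 reversed. From 0.25 the called interactions held 1 that grew, 1 that appeared and 2 that reversed, and from 1 they held 0, 4 and 0. With an arm ratio of 1.5, 1 was carried by 300, 1 by 640 and 2 by both. Over the alternatives the interaction of Mx1 lay between -3.64 and -2.92, that of Cxcl10 between -2.84 and -2.30, that of Ifit3 between -2.64 and -1.86 and that of Oas1a between -1.78 and -1.54. Signs turned in Aqp2 (0.025) and Avpr2 (0.13) with array weights, in Akr1b1 after quantile normalization (0.046) and without single arrays (range -0.44 to 0.047), and in Nfat5 on the deposited values (-0.0075), after cyclic loess (-0.023), without dim genes (-0.013), with every probe set (-0.026) and without single arrays (range -0.14 to 0.16). None of these 4 genes passed in any setting.

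The replicate numbers were not taken to pair the samples. Residuals of arrays with the same number correlated across osmolalities at -0.13, 0.84 and -0.21 at 24 h and at -0.23, 0.80 and -0.22 at 48 h for numbers 1, 2 and 3. Not every array correlated best with its own number: replicate 1 at 640 went with replicate 3 at 300 (0.58 and 0.63 at 24 h and 48 h) and replicate 3 at 640 with replicate 1 at 300 (0.83 and 0.78), so the arrays may form sets across osmolalities that the labels do not give, and no fit used such sets. The spread between such sets would stay in the error of each difference within a time. Its part in the low share of small interaction p-values was not tested. With the replicate block 3 interactions were called, 108 genes at 24 h and 332 at 48 h. That fit gave 2 genes over time at 300 (both higher) and 0 at 640 (604 with an unadjusted p under 0.05). Its blocks were coded within each time against replicate 1, so its time changes compare the fitted replicate 1 at 48 h with that at 24 h. These time counts are not a test of the change in group means. They do not bear on the falls at 300 or the rise of Cxcl10 at 640.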
